A study of Mus musculus with 6 samples.

Results

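The mitochondrial solute carriers were taken as the protein-coding genes whose symbol begins with Slc25a. They numbered 47 of 54352 rows and of 21949 protein-coding rows in a table of mouse heart RNA sequencing. Values were regularized log (rlog) values, a log2 scale on which libraries are brought to a common size and each value is drawn towards its gene's mean. A mean rlog of at least 5 over all libraries was asked of a gene before it was tested, and 37 of the 47 carriers passed, among 13094 genes. A single further row with such a symbol, the pseudogene Slc25a5-ps, was not a member.

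Hearts came from 3 groups with 2 libraries each. Control mice ate regular chow, had no disease and no transgene by the labels, and their strain and age are not stated separately. In both other groups C57BL/6 mice aged 12 weeks were put on a high-fat diet (60% of calories) and injected once with streptozotocin, a beta-cell toxin, at 75 mg/kg. Type 2 diabetes (T2D) was defined 20 weeks into the diet. They received adeno-associated virus (AAV) by jugular injection at 16 to 18 weeks from streptozotocin. Hearts were studied 4 weeks later, at 5 to 6 months of the diabetic regimen. An AAV without cargo defines the T2D empty vector group. In the T2D dnMCUb group the AAV encoded FLAG-tagged mouse MCUb, a component of the mitochondrial calcium uniporter, described as dominant negative through W246R and V251E. The codon changes that the same protocol gives do not encode those substitutions, and the description of the series names MCUb where the sample labels name dnMCUb, so the cargo is given here as the sample labels have it. The promoter that drove it is not given in the sources used here. The control group therefore differed from both T2D groups in diet, streptozotocin and virus together, and these cannot be told apart. Nothing in the labels ties the libraries to separate animals, and the p-values measure only the spread between these libraries, which may be technical.

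Most mitochondrial carriers are small proteins of the inner mitochondrial membrane, built from repeated pairs of membrane-spanning helices. Each alternates between facing the cytosol and facing the matrix, and so passes nucleotides, phosphate, keto acids, amino acids, carnitine esters, cofactors or metal ions across. In heart muscle the ADP/ATP carrier hands the ATP made in the matrix to the contractile apparatus. The carnitine/acylcarnitine carrier brings in fatty acids, and the malate and aspartate carriers bring in the reducing power of glycolysis.

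Because the values are not counts, the depth of the libraries is unknown. Mcub, the endogenous counterpart of the vector's cargo, had an rlog of 5.42 and 5.47 in the control libraries, 5.48 and 5.46 with empty vector and 5.62 and 5.47 in those labelled dnMCUb. Its second T2D dnMCUb library thus lay within the other groups. Whether vector reads were counted under this gene is not stated in the sources used here. The vector label was therefore not checked by Mcub. The 6 cardiomyocyte markers were all well above the minimum, with a summed level of 20.09 and 19.99 in the control libraries, 19.92 and 19.93 with empty vector and 19.72 and 20.00 in those labelled dnMCUb. Library 1 labelled dnMCUb had the lowest cardiomyocyte level and the highest atrial (12.15), fibroblast (15.21), smooth muscle (13.29) and macrophage (12.19) levels of the 6 libraries. The other groups were not uniform either. Library 2 with empty vector came next for fibroblast (14.94) and smooth muscle (12.81) levels, beside 14.64 and 12.30 in its library 1. The atrial level was 11.55 in control library 1 and 11.28 in control library 2. All 7 macrophage markers had a higher mean in T2D dnMCUb than in either other group. In bulk tissue, fewer cells of a type and less RNA per cell cannot be told apart.

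The carriers spanned a wide range of levels, with the ADP/ATP carrier Slc25a4 far above the rest. After subtraction of log2 of transcript length in kb, its rlog was 15.34 ± 0.14 (SD, n = 6). On that length-adjusted scale the malate/oxoglutarate carrier Slc25a11 followed at 12.39, the phosphate carrier Slc25a3 at 12.29 and the second ADP/ATP carrier Slc25a5 at 11.05. The carnitine/acylcarnitine carrier Slc25a20 stood at 10.69, Slc25a34 at 10.42, the aspartate/glutamate carrier Slc25a13 at 9.92 and the glutathione carrier Slc25a39 at 9.71. Slc25a11 and Slc25a3 differed by about as much as their SDs over libraries of 0.11 and 0.09. Within each of the 6 libraries Slc25a11 was nonetheless the higher on this scale. Their order depended on the transcript. With the length of the transcript listed in the table, in place of the longest annotated one, Slc25a3 reached 13.63 and Slc25a11 12.41.

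Slc25a4 made up 66.5% ± 1.51 (SD, n = 6) of the summed length-adjusted signal of the tested carriers. With the listed transcript lengths that share was 57.6%. By library it was 68.5% and 68.3% in the control libraries, 65.1% and 65.7% with empty vector and 65.5% and 65.7% in those labelled dnMCUb. Both control libraries lay above all 4 T2D libraries.

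**Figure D1:**
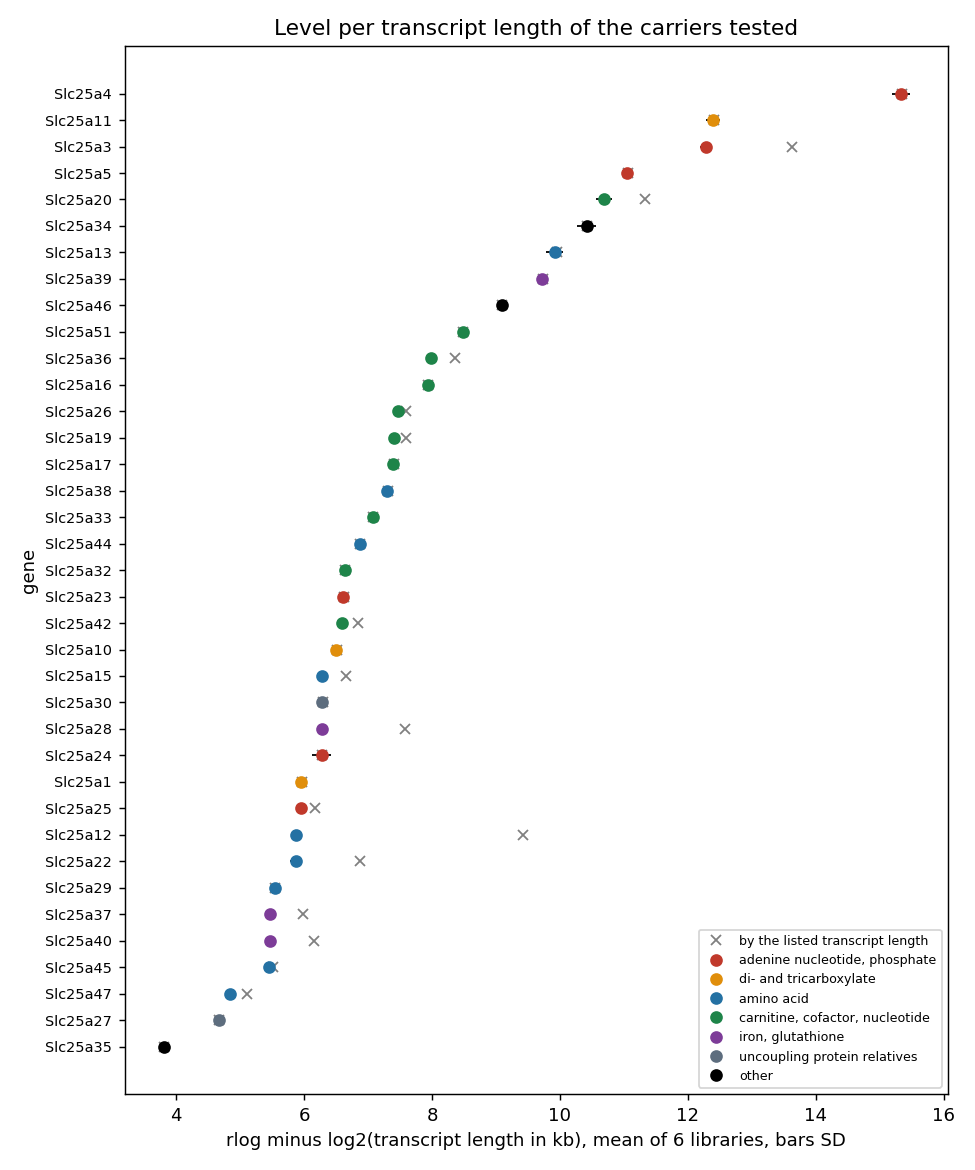
Length-adjusted rlog (x axis, log2 scale) of each of the 37 tested carriers (y axis), as the mean of 6 libraries with SD bars, coloured by carried substrate. Circles use the longest annotated transcript and crosses the transcript listed in the table. Slc25a4 stands at 15.34 and Slc25a11, next below it, at 12.39.

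The other end of the range was held by the 10 carriers below the minimum. Slc25a14, a relative of the uncoupling proteins, just missed it at 4.99, while Slc25a35, the lowest of those tested, had 5.67. Slc25a2 had 3.08 and Slc25a31, the ADP/ATP carrier known from testis, 2.55. Slc25a43, Slc25a21, Slc25a18, Slc25a53 and Slc25a48 lay between -2.09 and 1.63. Slc25a41 and Slc25a54 were listed at 0 in all 6 libraries.

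The range over 6 libraries had a median of 0.138 over the tested carriers, beside 0.125 over all genes tested, and ran from 0.0328 for Slc25a47 to 0.403 for Slc25a24. It was at least 0.2 in 11 carriers. Values were not drawn together equally in all carriers, so these ranges do not rank how steady the carriers were. Between T2D empty vector and control, Slc25a47 differed by -0.016 in rlog, beside a log2 fold of -0.13 deposited by the authors. For Slc25a4 these were -0.23 and -0.32.

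Some carriers share sequence with other genes, which bears on how reads could have been assigned. Of the 50-base words of Slc25a5's longest transcript, 46.6% also occur in annotated transcripts of 9 other genes, so its level is uncertain. The share was 25.8% for Slc25a35, whose exons overlap those of Rangrf on the opposite strand over 31.3% of their length. It was 11.0% for Slc25a20, spread over 213 genes, and none for Slc25a4, Slc25a13, Slc25a24, Slc25a34 and Slc25a38.

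The first comparison set T2D hearts with empty vector against control hearts. The largest negative rlog differences were those of the ADP/ATP carrier Slc25a4, the aspartate/glutamate carrier Slc25a13 and the malate/oxoglutarate carrier Slc25a11. The largest positive ones were those of the carnitine carrier Slc25a20, Slc25a34 and the glutamate carrier Slc25a22. The glycine carrier Slc25a38, lower in T2D, had the smallest limma p of the carriers. None of these differences passed in limma. With adjustment over all genes tested, 0 of 37 carriers had an adjusted p under 0.05, against 0.00% of all genes. At an unadjusted p under 0.05 there was 1 carrier, Slc25a38, against 6.13% of all genes. Of the 37 carriers 18 had a higher and 19 a lower mean in T2D empty vector, and the median log2 difference was -0.00114, beside -0.00246 over all genes tested. Without library 1 of T2D empty vector that median was -0.0388, and without library 2 it was 0.0208. The libraries of the groups did not overlap for 11 carriers that were higher (29.7%, against 19.9% of all genes) and for 11 that were lower (29.7%, against 22.5%).

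**Figure D2:**
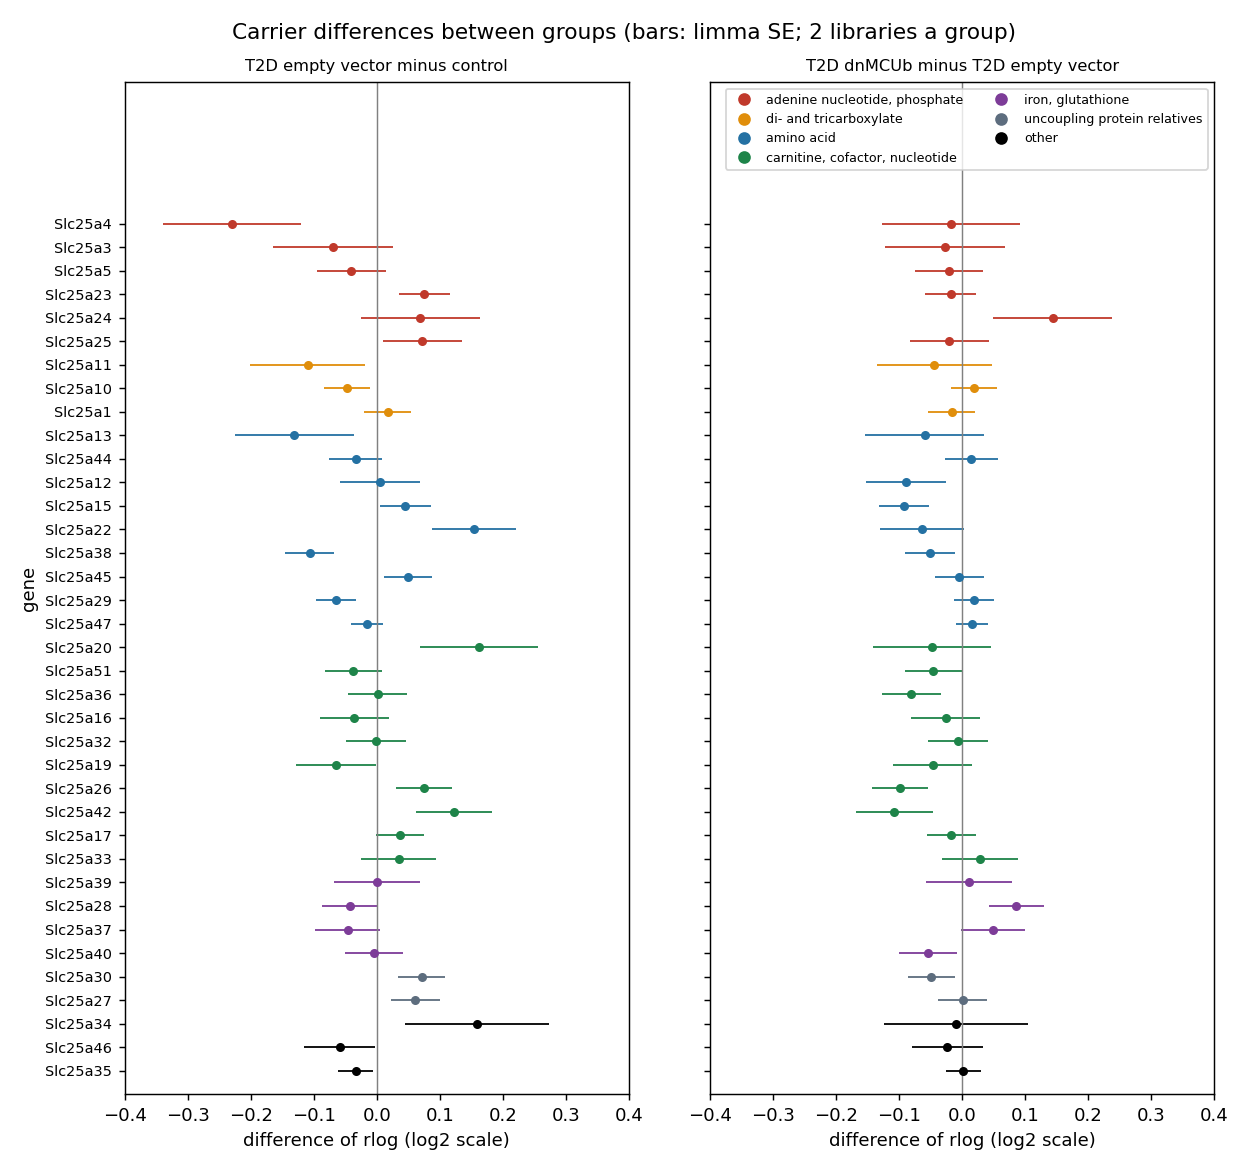
Difference of mean rlog (x axis, log2 scale) for each of the 37 tested carriers (y axis), with limma SE bars, for T2D empty vector minus control on the left and T2D dnMCUb minus T2D empty vector on the right. Points are coloured by carried substrate. On the left Slc25a4 lies lowest at -0.23 and Slc25a20 highest at 0.16, and 0 carriers passed the adjusted threshold in either panel.

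Among carriers of adenine nucleotides and phosphate, 6 of 9 were tested, 3 with a higher and 3 with a lower mean in T2D empty vector. Slc25a4 (ENSMUSG00000031633.4, minus strand of chromosome 8 from 46206797 to 46211284, GRCm38) is the main ADP/ATP exchanger of heart and skeletal muscle. Its rlog was 16.47 and 16.42 in the control libraries, 16.24 and 16.19 with empty vector and 16.08 and 16.30 in those labelled dnMCUb. Both control libraries were above every T2D library. The difference between T2D empty vector and control was -0.23 (SE 0.11, limma adjusted p = 0.805). The authors' deposited table gives Slc25a4 a log2 fold of -0.32 with an adjusted p of 0.00429. It was the 1 carrier of 37 with an authors' adjusted p under 0.05 in this comparison, against 0.542% of the genes tested.

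The summed level of cardiomyocyte markers was below both control libraries in both empty vector libraries and in library 1 labelled dnMCUb. In library 2 labelled dnMCUb it was 20.00, beside 20.09 and 19.99 in the control libraries. The part of that level in the Slc25a4 difference was not tested. Slc25a4 minus the summed cardiomyocyte level was -3.62 and -3.58 in the control libraries, -3.68 and -3.74 with empty vector and -3.63 and -3.69 in those labelled dnMCUb. The control libraries remained the highest on this scale, by a margin over library 1 labelled dnMCUb that was smaller than the gap between the control libraries.

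Slc25a5 exchanges the same nucleotides and is known from many tissues. It had an rlog of 11.39 and 11.39 in the control libraries, 11.35 and 11.35 with empty vector and 11.28 and 11.39 in those labelled dnMCUb. Slc25a4 exceeded it, as an rlog difference that is not adjusted for length, by 5.07 and 5.03 in control and by 4.88, 4.83, 4.81 and 4.92 in the T2D libraries. That difference was smaller in all 4 T2D libraries than in both control libraries. The phosphate carrier Slc25a3, which supplies the ATP synthase, had values of 14.37 and 14.34, then 14.35 and 14.22, then 14.15 and 14.38 in the same order of groups, which overlap.

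The ATP-magnesium/phosphate carriers adjust the matrix pool of adenine nucleotides and are governed by calcium. Slc25a23 was 8.30 and 8.34 in the control libraries, 8.40 and 8.39 with empty vector and 8.35 and 8.40 in those labelled dnMCUb. All T2D libraries were above the control libraries, with a difference of 0.08 (SE 0.04, limma adjusted p = 0.832) for the empty vector. Slc25a24 was 7.93 and 7.99 in the control libraries, 7.98 and 8.08 with empty vector and 8.33 and 8.01 in those labelled dnMCUb. Library 1 labelled dnMCUb stood apart from the other 5, which lay between 7.93 and 8.08.

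**Figure D3:**
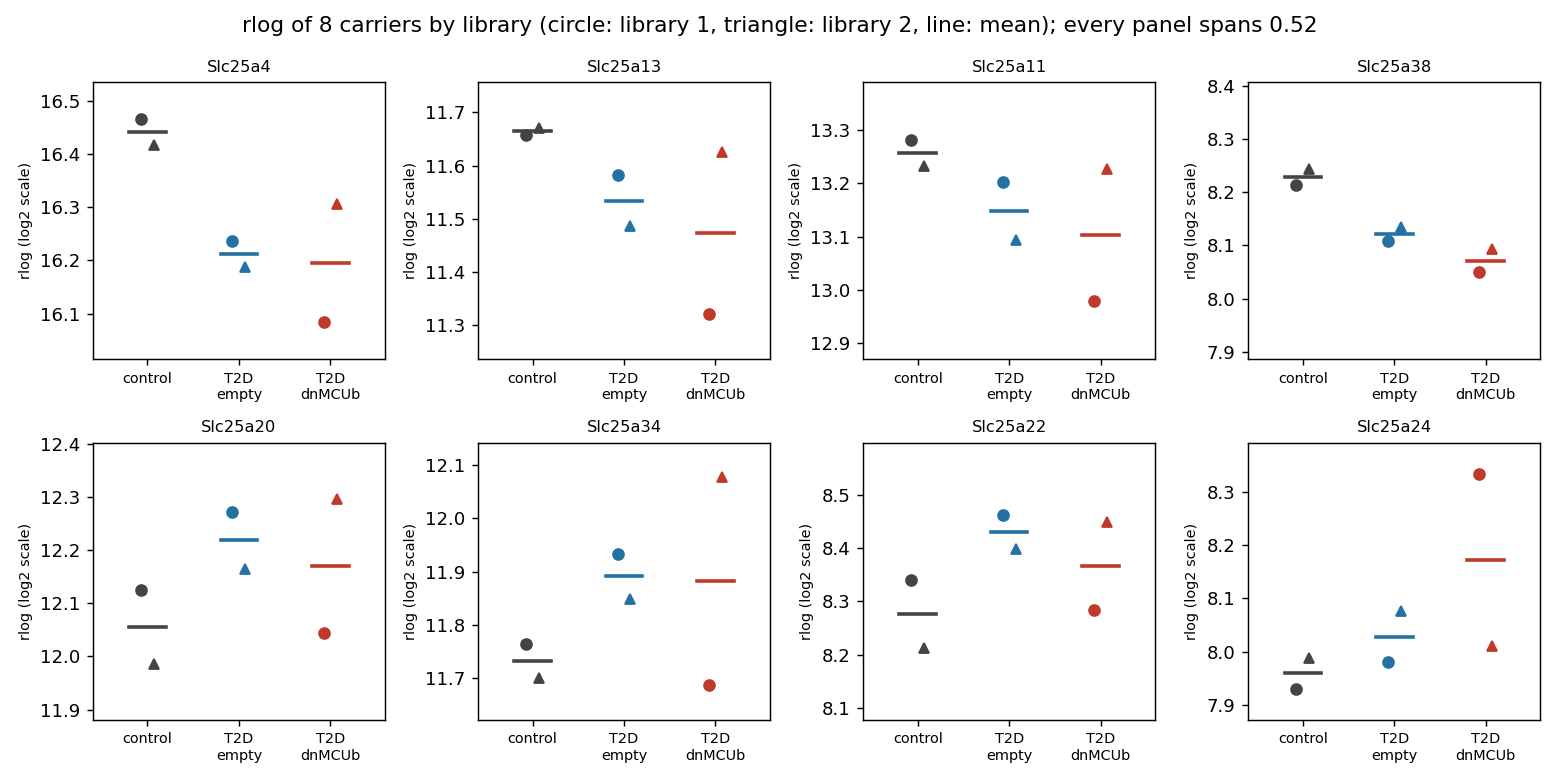
rlog (y axis, log2 scale, the same span in every panel) of 8 carriers in each library, by group on the x axis, with circles for library 1, triangles for library 2 and lines for group means. Slc25a4 and Slc25a38 have both control libraries above all 4 T2D libraries, and the T2D dnMCUb libraries lie farthest apart for Slc25a34.

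Of the di- and tricarboxylate carriers 3 of 4 were tested. Slc25a11, which swaps malate for oxoglutarate in the malate-aspartate shuttle, had 13.28 and 13.23 in the control libraries, 13.20 and 13.09 with empty vector and 12.98 and 13.23 in those labelled dnMCUb. Its difference between T2D empty vector and control was -0.11 (SE 0.09, limma adjusted p = 0.870), and from -0.16 to -0.06 with 1 library left out. Exons of Slc25a11 overlap those of Rnf167 on the opposite strand over 8.92% of their length. The dicarboxylate carrier Slc25a10 differed by -0.05 and the citrate carrier Slc25a1 by 0.02.

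Of the 11 carriers listed here under amino acids, not all with a settled substrate, 9 were tested, 4 with a higher and 5 with a lower mean in T2D empty vector. Slc25a38 (ENSMUSG00000032519.11, plus strand of chromosome 9 from 120110374 to 120124504), which brings glycine in for haem synthesis, had 8.21 and 8.24 in the control libraries, 8.11 and 8.13 with empty vector and 8.05 and 8.09 in those labelled dnMCUb. The 3 groups did not overlap, in an order that Slc25a51 shared, and the share of all genes with that order is not given here. Ranges within groups were narrow on the rlog scale, which draws values towards the gene's mean. The difference between T2D empty vector and control was -0.11 (SE 0.04, limma adjusted p = 0.805), and the log2 fold in the authors' deposited table was -0.27 with an adjusted p of 1.0.

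Slc25a13 exchanges aspartate for glutamate in the malate-aspartate shuttle and had 11.66 and 11.67 in the control libraries, 11.58 and 11.49 with empty vector and 11.32 and 11.63 in those labelled dnMCUb. The control libraries lay above all others. Its difference in T2D empty vector was -0.13 (SE 0.09, limma adjusted p = 0.856), and from -0.18 to -0.08 with 1 library left out. Slc25a12, which performs the same exchange, was 8.60 and 8.54 in the control libraries, 8.63 and 8.53 with empty vector and 8.41 and 8.57 in those labelled dnMCUb, and its groups overlapped. Slc25a22, a glutamate carrier, was 8.34 and 8.21 in the control libraries, 8.46 and 8.40 with empty vector and 8.28 and 8.45 in those labelled dnMCUb. The empty vector libraries lay above the control libraries by 0.15 (SE 0.07, limma adjusted p = 0.805; from 0.09 to 0.22 with 1 library left out), while the T2D dnMCUb libraries fell on either side of the higher control. Slc25a29, a carrier of basic amino acids, differed by -0.06 (SE 0.03, limma adjusted p = 0.805). Slc25a44, a branched-chain amino acid carrier, differed by -0.03 with overlapping groups.

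All 10 carriers of carnitine esters, cofactors and nucleotides were tested, 6 with a higher and 4 with a lower mean in T2D empty vector. Slc25a20 (ENSMUSG00000032602.6, plus strand of chromosome 9 from 108662098 to 108684641) had 12.13 and 11.99 in the control libraries, 12.27 and 12.17 with empty vector and 12.04 and 12.30 in those labelled dnMCUb. Its empty vector libraries lay above the control libraries by 0.16 (SE 0.09, limma adjusted p = 0.841; from 0.09 to 0.23 with 1 library left out), and library 1 labelled dnMCUb lay between the control libraries. Slc25a42, which carries coenzyme A, was 8.47 and 8.37 in the control libraries, 8.55 and 8.53 with empty vector and 8.35 and 8.51 in those labelled dnMCUb. Its difference was 0.12 (SE 0.06, limma adjusted p = 0.806), and from 0.08 to 0.17 with 1 library left out. Slc25a51, the NAD carrier, was 10.67 and 10.69 in the control libraries, 10.63 and 10.65 with empty vector and 10.57 and 10.62 in those labelled dnMCUb, with no overlap between the 3 groups. Its difference in T2D empty vector was -0.04 (SE 0.05, limma adjusted p = 0.903).

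The 4 iron importers and glutathione carriers differed by -0.05 to 0.00093 in T2D empty vector. Slc25a37, the iron importer mitoferrin of red cell precursors, was 8.12 and 7.98 in the control libraries, 8.02 and 7.99 with empty vector and 8.06 and 8.05 in those labelled dnMCUb. The summed level of red cell markers, in the same order of libraries, was 12.64 and 11.72, then 11.71 and 11.74, then 12.47 and 13.00. Slc25a37 was 8.05 to 8.12 in the libraries with a red cell level of 12.47 to 13.00. It was 7.98 to 8.02 in those with a level of 11.71 to 11.74. The highest red cell level did not go with the highest Slc25a37, and the part of red cells in Slc25a37 was not tested. Both tested relatives of the uncoupling proteins had empty vector libraries above the control libraries, as did 19.9% of all genes, and for Slc25a27 the nearest libraries of the groups were both at 6.19 after rounding. Slc25a30 differed by 0.07 (SE 0.04, limma adjusted p = 0.823) and Slc25a27 by 0.06 (SE 0.04, limma adjusted p = 0.847).

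Slc25a34 (ENSMUSG00000040740.7, minus strand of chromosome 4 from 141618824 to 141623821) has no settled substrate. It had 11.76 and 11.70 in the control libraries, 11.93 and 11.85 with empty vector and 11.69 and 12.08 in those labelled dnMCUb. The difference in T2D empty vector was 0.16 (SE 0.11, limma adjusted p = 0.856), and the widest gap between libraries of a group for this gene was in T2D dnMCUb. The authors' deposited table gives a log2 fold between T2D empty vector and control of 0.24 for Slc25a34 (adjusted p 0.576) and of 0.24 for Slc25a20 (adjusted p 0.719).

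Slc25a20 and Slc25a34 were also set against Slc25a4 within each library, a pairing chosen after the values were seen. As an rlog difference not adjusted for length, Slc25a20 minus Slc25a4 was -4.34 and -4.43 in the control libraries, -3.97 and -4.02 with empty vector and -4.04 and -4.01 in those labelled dnMCUb. All 4 T2D libraries, library 1 labelled dnMCUb among them, lay above both controls. The mean was -4.39 ± 0.06 (SD, n = 2) in control and -4.01 ± 0.03 (SD, n = 4) in T2D, a difference of 0.38. An exact two-sided permutation test gave p = 0.133, the smallest value that the test as run can give for 2 libraries against 4. Slc25a34 minus Slc25a4 was -4.70 and -4.72 in control, and -4.30, -4.34, -4.40 and -4.23 in the T2D libraries, a difference of 0.39 with the same exact p of 0.133. Because the genes were paired with these same values known, neither p can serve as support and no conclusion is drawn from them.

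The stretches before the start sites of this pair are shown, a pair picked after the values were seen. In both genes the empty vector libraries lay above the control libraries and above library 1 labelled dnMCUb. The same held for Slc25a22 and Slc25a42, so the pattern was not particular to the pair. A shared basis in these stretches was not tested. They are given 5′ to 3′ on the gene's own strand from RefSeq (GRCm38.p6), in lower case, with capitals for matches to the motifs searched. The Slc25a20 stretch is chr9:108661886-108662085, plus strand, and ends short of the annotated transcripts. The Slc25a34 stretch is chr4:141623835-141624084, minus strand.
Slc25a20: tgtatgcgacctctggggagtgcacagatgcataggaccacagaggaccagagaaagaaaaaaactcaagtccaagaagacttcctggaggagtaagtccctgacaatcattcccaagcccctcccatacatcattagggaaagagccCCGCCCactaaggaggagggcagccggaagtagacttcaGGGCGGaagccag
Slc25a34: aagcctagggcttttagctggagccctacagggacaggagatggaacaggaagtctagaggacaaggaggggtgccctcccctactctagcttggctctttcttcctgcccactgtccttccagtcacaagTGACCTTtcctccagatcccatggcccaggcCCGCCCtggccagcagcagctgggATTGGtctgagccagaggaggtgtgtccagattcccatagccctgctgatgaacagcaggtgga
Slc25a20 has matches to the GC box GGGCGG alone here, on both strands. Slc25a34 has a GC box, a CCAAT box and AAGGTCA, a letter pattern bound by oestrogen-related receptors, as its reverse complement.

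Motifs were searched on both strands in windows of 300 bases, 250 before to 50 after each start, of which RefSeq held some for 28 of the 37 tested carriers and for 36 of all 47. GGGCGG was in 88.2% of the 34 windows of tested carriers and in 35.7% of all 32851 windows. CCAAT was in 58.8% and 37.4%, CACGTG in 14.7% and 7.15%, AAGGTCA in 2.94% and 4.72%, and TGCGCA, a core pattern of NRF1 sites, in 5.88% and 7.76%. The AAGGTCA match of Slc25a34 was the only 1 among the carrier windows. None of these motifs contains another of them. The 34 windows belong to 28 carriers, so some carriers count more than once. All 32851 windows were taken whether or not their genes passed the minimum, so the sets are unlike. Whether the shares are particular to carriers was not tested.

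The second comparison set the libraries labelled dnMCUb against those with empty vector, which share the disease and the virus by the labels. Slc25a15, Slc25a26, Slc25a42 and Slc25a36 had the lower values with the smallest p and Slc25a28 the higher one, and none passed. In limma 0 of 37 carriers had an adjusted p under 0.05, against 0.00% of all genes, and 0 had an unadjusted p under 0.05, against 5.64%. The authors' deposited table called 0.0611% of the genes tested and 0 carriers. Means were higher for 11 carriers and lower for 26 (70.3%, against 50.5% of all genes), with a median of -0.02 beside -0.000506 over all genes. Groups did not overlap for 4 higher carriers (10.8%, against 15.6%) and 8 lower ones (21.6%, against 16.5%).

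The excess of lower carriers rested on library 1 labelled dnMCUb and also on library 1 of T2D empty vector. Without library 1 labelled dnMCUb 22 carriers were higher and 15 lower, with a median of 0.0154. Without library 2 labelled dnMCUb the counts were 9 and 28, with a median of -0.0673. Without library 1 of T2D empty vector they were 19 and 18, with a median of 0.00103. Within the T2D dnMCUb group 28 of 37 carriers were lower in library 1 than in library 2 (75.7%, against 54.3% of all genes), with a median difference of -0.0524. In T2D empty vector 10 of 37 were lower in library 1 (27.0%, against 48.3%), and in control 19 were. The lowest deviation of any carrier in a library was that of Slc25a13 in library 1 labelled dnMCUb, at -0.24 from the mean of 6 libraries. The highest was that of Slc25a24 in the same library, at 0.28. The part of cell content in this gap was not tested.

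**Figure D4:**
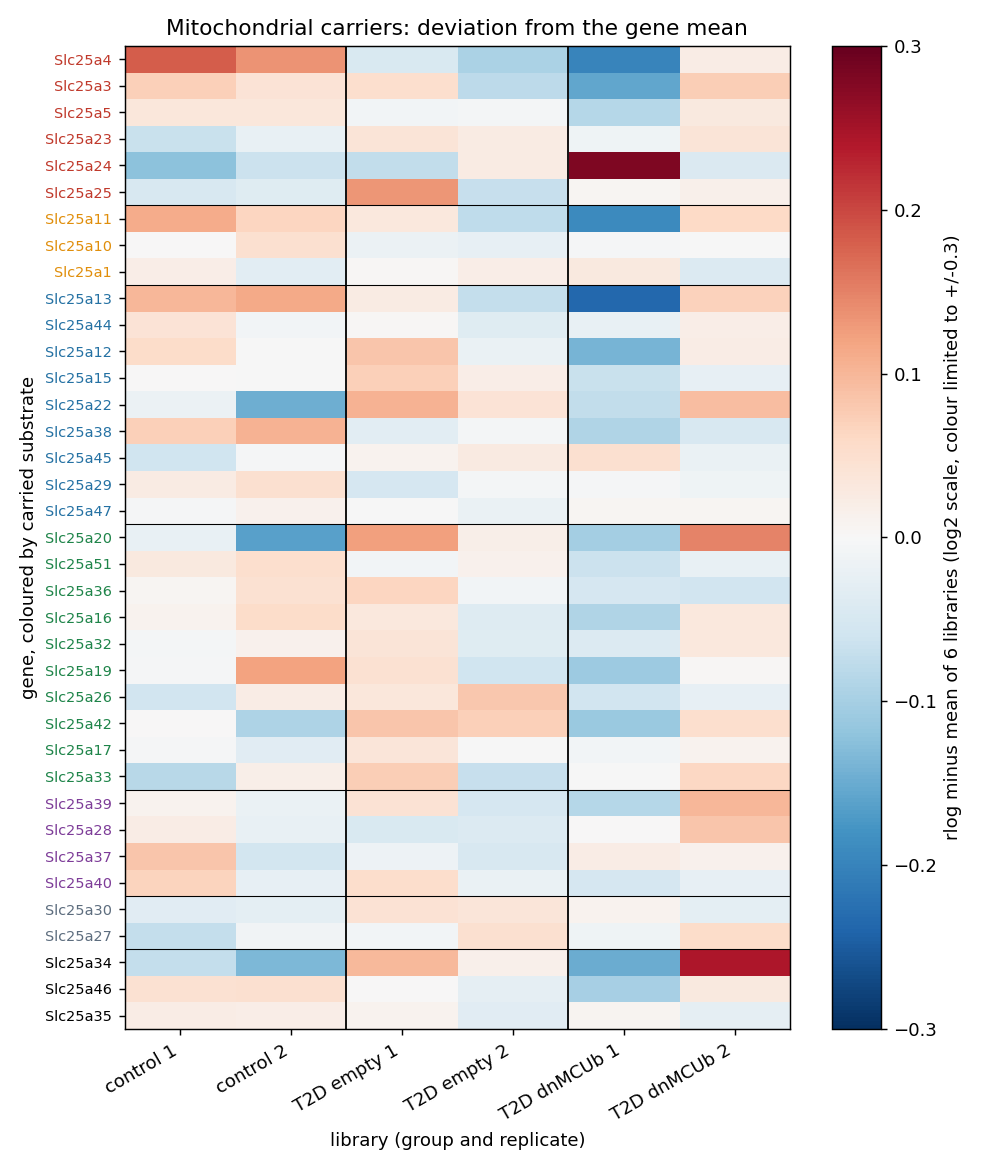
Deviation of each of the 37 tested carriers (rows, coloured by carried substrate) from its mean rlog over 6 libraries (columns), on a log2 scale with colour limited to 0.3 either way. Slc25a4 is high in both control columns, and the T2D dnMCUb 1 column holds the lowest deviation (Slc25a13) and the highest (Slc25a24).

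Slc25a15, the ornithine carrier, had 8.43 and 8.43 in the control libraries, 8.50 and 8.45 with empty vector and 8.36 and 8.41 in those labelled dnMCUb. Its empty vector libraries were the highest and its dnMCUb libraries the lowest, with a difference of -0.09 (SE 0.04, limma adjusted p = 0.869). Slc25a26, which carries S-adenosylmethionine, was 8.47 and 8.55 in the control libraries, 8.56 and 8.61 with empty vector and 8.47 and 8.50 in those labelled dnMCUb. It differed by -0.10 (SE 0.04, limma adjusted p = 0.869), and the dnMCUb libraries lay within the control range. Slc25a42 differed by -0.11 (SE 0.06) and the pyrimidine nucleotide carrier Slc25a36 by -0.08 (SE 0.05), both with a limma adjusted p of 0.888. With 1 library left out they ranged from -0.19 to -0.03 and from -0.12 to -0.04.

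The iron importer Slc25a28, a second mitoferrin, was 8.20 and 8.15 in the control libraries, 8.13 and 8.14 with empty vector and 8.18 and 8.26 in those labelled dnMCUb. Both dnMCUb libraries were above both empty vector libraries, by 0.09 (SE 0.04, limma adjusted p = 0.877), and by 0.04 to 0.13 with 1 library left out. Slc25a24 differed by 0.14 (SE 0.09, limma adjusted p = 0.888) with overlapping groups, and by -0.02 without library 1 labelled dnMCUb. Slc25a4, Slc25a20 and Slc25a34 differed by -0.02, -0.05 and -0.01, each by less than its SE.

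Carriers in T2D dnMCUb were also set against control, in a comparison that shares its libraries with those above. Here 0 of 37 carriers had a limma adjusted p under 0.05, against 0.0687% of all genes, and 1 had an unadjusted p under 0.05, against 11.4%. The authors' deposited table called 0.794% of the genes tested and 0 carriers. Means were higher for 16 carriers and lower for 21, with a median of -0.0183 beside -0.00234 over all genes. Leaving out library 1 labelled dnMCUb gave a median of -0.000296, and leaving out library 2 gave -0.0409. Groups did not overlap for 4 higher carriers (10.8%, against 20.2%) and 13 lower ones (35.1%, against 22.7%). Slc25a38 differed by -0.16 (SE 0.04, limma adjusted p = 0.213), Slc25a4 by -0.25 (SE 0.11, limma adjusted p = 0.449), Slc25a13 by -0.19 (SE 0.09, limma adjusted p = 0.486) and Slc25a51 by -0.08 (SE 0.05, limma adjusted p = 0.516). Slc25a24 differed by 0.21 (SE 0.09, limma adjusted p = 0.450).

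Leaving out library 2 labelled dnMCUb, which leaves library 1 alone in its group and assumes that it varies like the others, put 4 carriers past the threshold (10.8%), beside 743 of all 13094 genes (5.67%). The carriers were Slc25a4 at -0.36 (limma adjusted p = 0.0333), Slc25a13 at -0.34 (limma adjusted p = 0.0227), Slc25a24 at 0.37 (limma adjusted p = 0.017) and Slc25a11. With library 1 left out in place of library 2, 0 carriers passed. Slc25a4 then differed from control by -0.14, Slc25a13 by -0.04 and Slc25a24 by 0.05.

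With both T2D groups set against control, 0 of 37 carriers had a limma adjusted p under 0.05, against 0.00% of all genes. At an unadjusted p under 0.05 there were 2, Slc25a38 and Slc25a4, against 9.69%. Means were higher for 15 carriers and lower for 22, with a median of -0.00777 beside -0.0017 over all genes. With 1 library left out that median ranged from -0.0232 to -0.00193. All 4 T2D libraries were above both control libraries for 2 carriers (5.41%, against 10.0% of all genes) and below them for 10 (27.0%, against 11.9%). Slc25a38 differed by -0.13 (SE 0.03, limma adjusted p = 0.265) and Slc25a4 by -0.24 (SE 0.09, limma adjusted p = 0.486). Slc25a38 kept its direction and lay between -0.15 and -0.12 when any 1 library was left out.

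The uncoupling proteins belong to the same protein family under other symbols, and 4 of 5 family proteins of that kind were tested. Ucp3, found in skeletal muscle and heart and linked to fatty acid use, had 9.57 and 9.19 in the control libraries, 9.94 and 9.92 with empty vector and 9.65 and 10.17 in those labelled dnMCUb. All T2D libraries lay above both control libraries, by 0.55 (SE 0.17, limma adjusted p = 0.759; from 0.36 to 0.74 with 1 library left out) for the empty vector and 0.53 (SE 0.17, limma adjusted p = 0.318) for dnMCUb. On the rlog scale both differences were larger than that of any tested Slc25a carrier. The authors' fold of Ucp3 was not set beside those of the carriers. Ucp2 had 7.05 and 6.95 in the control libraries, 7.11 and 7.16 with empty vector and 7.17 and 7.30 in those labelled dnMCUb. It differed by 0.13 (SE 0.05, limma adjusted p = 0.805) and 0.24 (SE 0.05, limma adjusted p = 0.184). Ucp1, the uncoupling protein of brown fat, lay at -0.42 in every group.

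Enzymes that make or use what the carriers move numbered 20, all tested, and 0 passed in any comparison. In T2D empty vector 5 had a higher and 15 a lower mean than in control (75.0%, against 51.8% of all genes), with a median of -0.05. Without control library 1 the counts were 8 and 12 with a median of -0.0236, and without control library 2 the median was -0.0792. Groups did not overlap for 4 higher enzymes (20.0%, against 19.9% of all genes) and 9 lower ones (45.0%, against 22.5%). The 4 higher ones were the enzymes of carnitine shuttling, picked out after their values were seen. Cpt1a, which loads fatty acids onto carnitine, differed by 0.18 (SE 0.09, limma adjusted p = 0.805; from 0.08 to 0.28 with 1 library left out), and Cpt1b, its form in heart muscle, by 0.14 (SE 0.10, limma adjusted p = 0.849). Cpt2, which unloads them in the matrix, differed by 0.18 (SE 0.09, limma adjusted p = 0.814) and the carnitine acetyltransferase Crat by 0.10 (SE 0.10, limma adjusted p = 0.885). These values lay beside 0.16 for Slc25a20, and for each of the 4 library 1 labelled dnMCUb was below both empty vector libraries.

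Among enzymes with lower values, Alas1, the first enzyme of haem synthesis and the user of glycine in the matrix, had 12.00 and 12.13 in the control libraries, 11.64 and 11.87 with empty vector and 11.80 and 11.99 in those labelled dnMCUb. Its difference was -0.30 (SE 0.10, limma adjusted p = 0.759; from -0.42 to -0.19 with 1 library left out) in T2D empty vector and -0.17 (SE 0.10, limma adjusted p = 0.540) in T2D dnMCUb. Got1, the cytosolic aspartate aminotransferase of the malate-aspartate shuttle, differed by -0.16 (SE 0.08, limma adjusted p = 0.823) and -0.25 (SE 0.08, limma adjusted p = 0.326) in the same order.

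Of 12 tested genes for the import of carriers into the inner membrane, 10 had a lower mean in T2D empty vector than in control (83.3%, against 51.8% of all genes), with a median of -0.05, and 0 passed. Without library 2 of T2D empty vector 8 were lower, with a median of -0.0124. Timm9, a chaperone of the intermembrane space, had the smallest p, with a difference of -0.09 (SE 0.04, limma adjusted p = 0.805). Of 15 other genes for membrane transport 12 were lower (80.0%), with a median of -0.02, and 0 passed. The median was -0.0496 without library 1 of T2D empty vector, and without library 2 the count was 9. The pyruvate carrier subunits Mpc1 and Mpc2 differed by -0.06 and -0.03, each within its SE. Letm1, an inner membrane protein of cation exchange, was 10.55 and 10.52 with empty vector and 10.33 and 10.44 in the libraries labelled dnMCUb, a difference of -0.15 (SE 0.05, limma adjusted p = 0.869; from -0.20 to -0.10 with 1 library left out). In the comparison of dnMCUb with empty vector, 15 of the 20 enzymes were lower with both dnMCUb libraries, and 3 of 20 without library 1.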

How the data were processed

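The authors deposited rlog values on the log2 scale, 1 column per library, and a transcript length per gene. For 3 comparisons the same table holds the authors' log2 fold with raw and adjusted p-value. Libraries were made from ribosome-depleted total RNA with a stranded kit, per the labels' protocols. Per the submitters' processing notes, bcl2fastq 2.20.0.422, STAR 2.5.2a and DESeq2 were used and GRCm38, mm10 and hg38 are named, with no roles. The counting step is not given in the sources used here. No unmapped value column was found (0).

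Group differences were fitted by limma 3.58.1 under R 4.3.3 (mean-variance trend, Benjamini-Hochberg at 0.05). The fit held all 6 libraries, a term per group and the genes whose mean rlog reached 5. Residual degrees of freedom were 3, and the prior added 4.6. The script was tested on simulated data. An exact permutation test of 2 libraries against 2 cannot go below 0.333. Carrier differences in rlog were compressed, at a median ratio to the authors' fold of 0.396, 0.399 and 0.424 for T2D empty vector against control, T2D dnMCUb against T2D empty vector and T2D dnMCUb against control. A summed level is log2 of the sum of a list's values on the linear scale.

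Lengths, overlaps and shared 50-base words came from GENCODE M21, which held the listed transcripts of 46 carriers and the genes of all 47. Named for their differences are carriers with the smallest p in each direction of a comparison (up to 4) and fixed carriers of central metabolism. Of each partner list up to 2 genes per comparison are named, with Ucp2, Ucp3, Mpc1 and Mpc2 fixed. Slc25a10, Slc25a34, Cpt1b, Cpt2 and Crat fall outside this rule and were added with the values known. Members and lists were chosen with earlier results of these data known. Alternatives were other filters, fits, weights, centring, a replicate block and leaving out each library.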

Additional observations from a re-analysis of the deposited data

How the results depend on the processing

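The count of carriers past the adjusted threshold was 0 in every comparison under each alternative, except when library 2 labelled dnMCUb was left out. Over the fits that leave out 1 library it ranged from 0 to 4 against control and from 0 to 3 for both T2D groups against control. Without that library 743 and 314 of 13094 genes passed in these comparisons (5.67% and 2.40%), beside 10.8% and 8.11% of the carriers. The 3 were Slc25a4, Slc25a13 and Slc25a24. With the replicate block it was 0 in all 4 comparisons. Same-numbered libraries had correlated deviations of -0.0876, -0.0133 and -0.511, so the numbers were not taken to pair them. Of 673 alternatives for 53 named results, 665 kept direction and side of the threshold, 6 crossed the threshold and 2 reversed. The reversed ones were Slc25a24 (from -0.0179 to 0.305 over left-out libraries) and Mtch1 (from -0.00607 to 0.0971), both for T2D dnMCUb against T2D empty vector and both without library 1 labelled dnMCUb. Neither difference had passed. With 1 library left out, 37 of the 53 named differences moved by over 1.5 times or changed sign.

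Over all genes, T2D empty vector against control had 0 calls, 30 when only those groups were fitted or either library labelled dnMCUb was left out, 5 with library weights and 1 without control library 2. T2D dnMCUb against control had 9 calls, 16 with library weights, and 0 with no filter, the stricter filter, no trend, centring, the replicate block or only those groups. Without library 1 labelled dnMCUb it had 89, without library 2 it had 743, and without 1 of the other libraries it had 0 or 1. T2D dnMCUb against T2D empty vector had 14 without library 1 labelled dnMCUb. Both T2D groups against control had 40 with library weights, 2 without control library 2, and 79 and 314 without library 1 and 2 labelled dnMCUb. The cause was not tested. For that comparison the fit of only the groups compared is the same fit, so it gave no value. The share of Slc25a4 in the length-adjusted signal was 57.6% with the listed transcript lengths, an alternative chosen after seeing the data. Depth is unknown, so no limit from counting can be given.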
